A study of Sus scrofa with 6 samples.

Results

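The genes of Wnt signalling that act outside the cell or at its surface, with their first relays inside it, were followed in the back muscle of pigs that differed in fat deposition. They were taken by gene symbol: the WNT ligands, the frizzled (FZD) receptors, the SFRP, DKK and RSPO families, and LRP5, LRP6, FRZB, WIF1, CTNNB1, AXIN1, AXIN2, TCF7L1, TCF7L2 and LEF1. The rule found 49 of the 25878 genes listed. RNA was sequenced from the longissimus dorsi, the long muscle of the back, of 6 Nanyang Black pigs aged 180 days according to the deposited labels (the paper states another age), with 1 library per pig. HF01, HF02 and HF03 are the high-fat deposition (HF) and LF01, LF02 and LF03 the low-fat deposition (LF) group, and no treatment was given to either. The pigs were chosen for relatively high or low lipid deposition and, by the methods of the study, were sibling females kept together, so the groups differ by phenotype within a single breed.

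Wnt ligands are secreted glycoproteins that bind frizzled receptors together with the co-receptors LRP5 and LRP6. Binding stops the AXIN complex from marking beta-catenin (CTNNB1) for destruction, and beta-catenin then acts with TCF and LEF factors on target genes. Other ligands, among them WNT5A and WNT11, signal mostly through routes that do not need beta-catenin. SFRP proteins, FRZB and WIF1 bind the ligands outside the cell, DKK1 and DKK2 act on LRP5 and LRP6, and R-spondins keep receptors at the surface. In muscle these signals are known for their part in satellite cells and regeneration, and in fat cell precursors beta-catenin signalling is known to hold back adipogenesis.

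The values are FPKM, fragments scaled to transcript length and library size, as the authors computed them, so that levels can be set side by side between genes. The FPKM of all genes summed to 598096 in LF02 and to between 734973 and 961903 in the other pigs. COX1, ATP8, ATP6 and COX3 of the mitochondrial genome are listed at 0 in LF02, and the skeletal muscle actin ACTA1 has 0 in HF01 and HF03, so an exact 0 is given only as listed at 0. The muscle fibre genes CKM and MYLPF were at 1622 to 2815 and 11054 to 29740 FPKM, and both are defining genes of the labelled tissue. The groups were compared by limma on log2(FPKM + 0.1), two-sided, for the 11136 genes that averaged 0.5 FPKM or more across all 6 pigs. Calls needed an adjusted p (Benjamini-Hochberg) under 0.05, and a fold change on this scale understates that of genes with low FPKM.

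Of the 49 Wnt genes, 25 had a mean of at least 0.5 FPKM and 24 lay under it. Those under 0.5 FPKM were WNT1, WNT2, WNT2B, WNT3, WNT3A, WNT6, WNT7A, WNT7B, WNT8A, WNT8B, WNT9B, WNT10A, WNT10B and WNT16 among the ligands, FZD3, FZD5 and FZD9 among the receptors, DKK1, DKK4 and WIF1 among the inhibitors, RSPO1, RSPO2 and RSPO4, and LEF1. All 24 were under 0.5 FPKM in every single pig. Of the 25 above it, 18 were at 0.5 FPKM or more in every pig, while WNT5A, FZD8, FZD10, SFRP1, SFRP2, DKK3 and RSPO3 fell below it in at least 1 pig. By role, 7 of 10 frizzleds, 7 of 10 secreted inhibitors and both co-receptors passed 0.5 FPKM, against 3 of 17 ligands. Of all 25878 genes, 16596 were above 0 in at least 1 pig and 11136 passed 0.5 FPKM. WNT5B, a ligand with no symbol in the table and so outside the rule, also passed it.

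By limma, 0 of the 25 genes passed an adjusted p under 0.05, a call that 0.0718% of all tested genes received. At an unadjusted p under 0.05, 10 of the 25 were higher in HF (11% of all tested genes) and 0 were lower (13.8% of all tested genes). In 11 of the 25 all HF pigs exceeded all LF pigs (12.8% of all tested genes), and in 0 was every HF pig below every LF pig (17.1% of all tested genes). With quantile normalization these counts were 6 and 1 (12.9% and 15.8% of all tested genes). FZD1, FZD2, FZD8, DKK3 and TCF7L2 then overlapped, and WNT11 had all HF pigs below. The median log2 fold change of the 25 was 0.70, against -0.026 for all tested genes, and 23 were positive, against 48.1% of all tested genes. Low genes as a whole were more often higher in HF: among genes with a mean of 0.5 to under 5 FPKM, 18.5% had all HF pigs on top, 8.09% all HF pigs at the bottom, 15.6% an unadjusted p under 0.05 and a higher HF level, and 62.7% a log2 fold change above 0 (median 0.16). Of the 20 Wnt genes in that range these counts were 9, 0, 8 and 19, with a median of 0.71. WNT5A, FZD8 and FZD10 reached the minimum of 0.5 FPKM only through their HF mean. Without them, 10 of 22 genes had every HF pig on top and the median was 0.66. Without HF03 the number higher in HF at an unadjusted p under 0.05 was 4 of 24 (6.38% of all tested genes). Without LF03 it was 6 of 25 (8.21%). How the siblings fall into the 2 groups is not given in the sources used here, and p-values cover the spread between these 6 libraries.

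**Figure D1:**
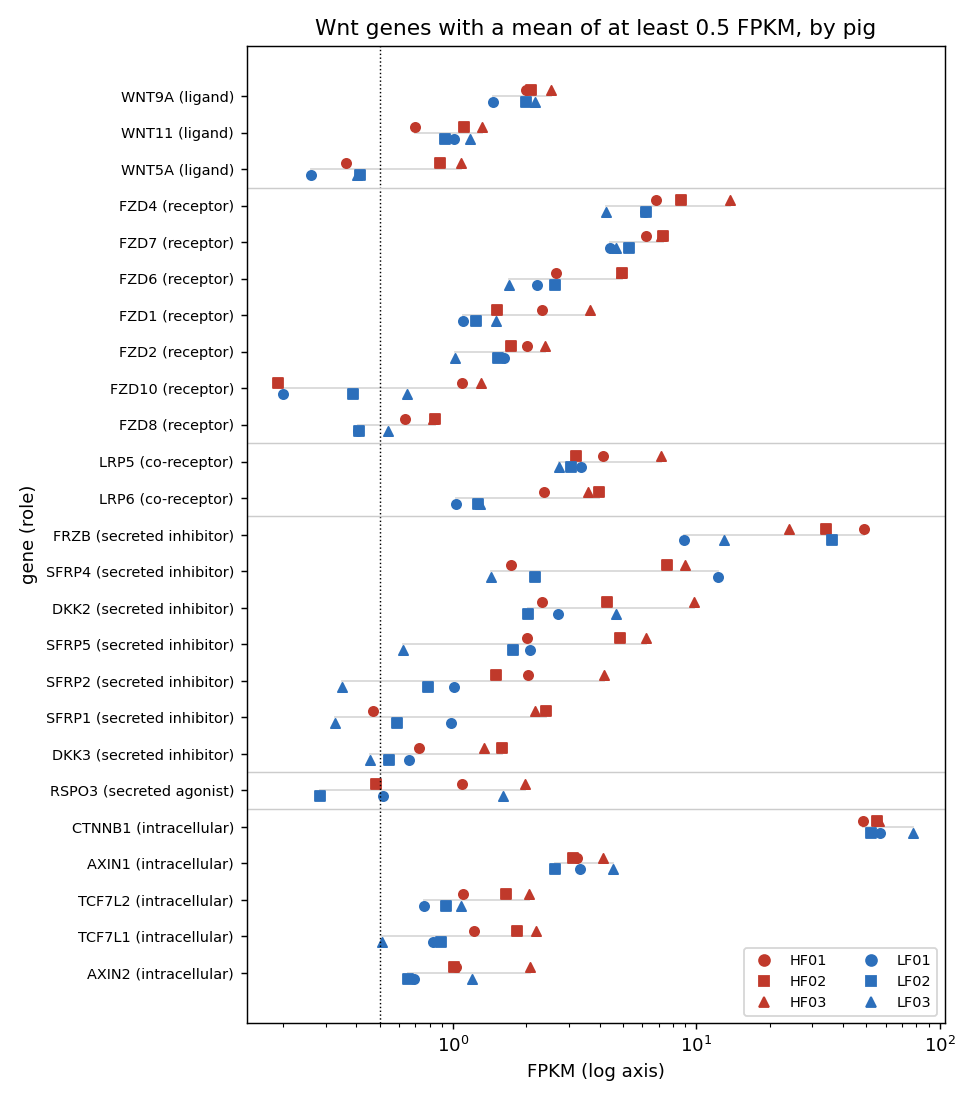
FPKM of the 25 Wnt genes that averaged 0.5 FPKM or more, on a log axis, by role; each point is 1 pig (red HF, blue LF; circle, square and triangle for pigs 01, 02 and 03) and the dotted line marks 0.5 FPKM. CTNNB1 lies furthest to the right on average, followed by FRZB, whose points spread from 8.86 FPKM in LF01 to 48.8 in HF01. For each frizzled other than FZD10 the red points lie to the right of the blue ones of the same gene.

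Markers of other cell types were measured in the same libraries, and by limma 0 of those given here passed an adjusted p under 0.05. All 9 fibroblast and fibro-adipogenic markers had a positive log2 fold change (median 0.80), against 48.1% of all tested genes. At an unadjusted p under 0.05, 4 were higher (11% of all tested genes), and every HF pig was on top in 4 (12.8%). Their summed level was 283 to 719 FPKM in HF and 270 to 329 in LF. All 6 smooth muscle and pericyte markers were positive (median 1.48), with 185 to 394 FPKM in HF and 97.7 to 197 in LF. At an unadjusted p under 0.05, 4 were higher, and 1 had no overlap, beside the same shares of all tested genes. The gene without overlap was CNN1, a calponin of smooth muscle, at 24.0 to 44.1 FPKM in HF and 3.55 to 11.0 in LF. Endothelial markers (6 of 6 positive, median 0.37) summed to 71.9 to 93.0 FPKM in HF and 45.5 to 79.4 in LF. Adipocyte markers (6 of 6 tested positive, median 0.74) summed to 105 to 235 and 81.0 to 160. In both lists 0 were at an unadjusted p under 0.05, and every HF pig was on top in 0 endothelial markers and 1 adipocyte marker. Of 8 muscle fibre markers 3 were positive and 5 negative (median -0.29), ACTA1 with its values listed at 0 among the negative. Satellite cell markers were mixed, with 3 positive, 2 negative and a median of 0.081, and summed to 15.8 to 18.4 FPKM in HF and 19.1 to 23.0 in LF. PAX7, their defining factor, was at 1.33 ± 0.271 and 0.625 ± 0.0809 FPKM (SD, n = 3 each), and VCAM1 went the other way, at 8.23 ± 2.29 and 12.9 ± 0.807. No marker of these lists was listed at 0 in all pigs. Their part in the Wnt results was not tested, and in whole muscle more cells of a type and more RNA per cell cannot be told apart.

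Among the ligands, the messages of WNT9A and WNT11 made up 61.6% to 80.8% of the summed ligand FPKM of a pig over the 17 ligands taken by symbol. With WNT5B added to the sum, at 1.75 to 6.25 FPKM the most abundant ligand on average, their share was 31.9% to 50.7%. WNT9A, a ligand known from joint formation in chick and mouse, measured 2.001, 2.10 and 2.53 FPKM across HF01 to HF03 and 1.46, 2.002 and 2.16 across LF01 to LF03. The groups overlapped, and the log2 fold change was 0.24 (95% interval -0.28 to 0.75). WNT11, which orients growing muscle fibres in chick embryos, was at 0.696, 1.11 and 1.31 FPKM in the HF and 1.01, 0.931 and 1.17 in the LF pigs. Its highest and its lowest value were both in HF pigs, and its log2 fold change of -0.032 (95% interval -0.71 to 0.64) turned positive, to 0.12, with upper-quartile scaling. WNT5A, the main ligand of the beta-catenin-independent route, was at 0.364, 0.887 and 1.08 FPKM in HF and 0.261, 0.414 and 0.402 in LF. HF02 and HF03 stood above all LF pigs and HF01 lay among them (log2 fold change 0.84, 95% interval -0.18 to 1.87, adjusted p = 0.276 from limma).

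The summed level of all 17 ligands was 3.57, 5.20 and 5.95 FPKM in the HF and 3.05, 3.94 and 4.20 in the LF pigs, so the groups overlapped. The 10 frizzleds together were higher than the ligands in every pig. Their sum was 3.55 to 6.15 times the ligand sum, and 1.42 to 4.13 times with WNT5B included. It stood at 21.996, 25.7 and 34.8 FPKM among HF pigs and 16.4, 17.9 and 14.9 in the LF pigs, and here all HF pigs exceeded all LF pigs.

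Of the 7 tested frizzleds, the seven-pass receptors of Wnt ligands, 6 had all HF pigs over all LF pigs, FZD10 being the exception (12.8% of all tested genes and 18.5% of low ones). FZD8 and FZD10 entered only through their HF mean, and without them the count was 5 of 5. All 7 log2 fold changes were positive, from 0.51 to 0.88 with a median of 0.72, and 0 passed limma (4 at an unadjusted p under 0.05, FZD1, FZD4, FZD6 and FZD7). FZD4 and FZD7 held 59.2% to 64.5% of the summed frizzled FPKM in every pig of either group. FZD4, a receptor known from blood vessel growth, where it also binds norrin, measured 6.83, 8.63 and 13.7 FPKM across HF01 to HF03 and 6.16, 6.20 and 4.24 across LF01 to LF03. The lowest HF value was 1.10 times the highest LF value, and the log2 fold change was 0.76 (95% interval 0.10 to 1.42, adjusted p = 0.156 from limma), and 0.49 without HF03. FZD7, known in mouse as a receptor of WNT7A on satellite cells, was at 6.19, 7.32 and 7.17 FPKM among HF pigs and at 4.43, 5.29 and 4.69 in the LF pigs. It varied least among the frizzleds, with a coefficient of variation of 8.88% in HF and 9.10% in LF, and its log2 fold change was 0.51 (95% interval 0.10 to 0.92, adjusted p = 0.136 from limma). The FZD4 model overlaps that of TMEM135 at its end.

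FZD6, a receptor of planar cell polarity, was at 2.65, 4.95 and 4.89 FPKM in the HF and 2.21, 2.62 and 1.69 in the LF pigs. HF01 was only 1.01 times LF02, and HF02 and HF03 were clear of all LF pigs (log2 fold change 0.88, adjusted p = 0.125 from limma). FZD1 was at 2.32, 1.51 and 3.64 FPKM in HF and 1.10, 1.24 and 1.504 in LF, and its groups were parted by the same narrow margin, 1.01 times, between HF02 and LF03 (log2 fold change 0.84, and 0.53 without HF03). FZD2 was at 2.02, 1.73 and 2.39 FPKM in HF and 1.62, 1.53 and 1.02 in LF (log2 fold change 0.54, 95% interval -0.036 to 1.12, and 0.35 without LF03). FZD6, FZD1 and FZD2 thus had no overlap but a small gap. FZD8 was at 0.636, 0.846 and 0.828 FPKM in HF and 0.406, 0.412 and 0.539 in LF. FZD10 was at 1.09, 0.191 and 1.30 FPKM in HF and 0.200, 0.389 and 0.645 in LF, and held the lowest value of all in HF02 (log2 fold change 0.72, from 0.30 without HF03 to 1.44 without HF02). With quantile normalization 3 of the 7 frizzleds (FZD4, FZD6 and FZD7) kept every HF pig on top, where 12.9% of all tested genes had it. With each pig left out in turn 6 or 7 did, but a gene without overlap stays so when a pig is removed.

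LRP6 and LRP5 are the single-pass co-receptors that beta-catenin signalling needs. LRP6 (chr5:60149026-60314764 in Sscrofa11.1) measured 2.35, 3.96 and 3.60 FPKM across HF01 to HF03 and 1.02, 1.27 and 1.29 across LF01 to LF03. Every HF pig was at least 1.83 times every LF pig, the widest gap of the tested Wnt genes. Its log2 fold change was 1.37 (standard error 0.25, 95% interval 0.80 to 1.94), the group means were 3.31 ± 0.844 and 1.19 ± 0.146 FPKM (SD, n = 3 each), and the adjusted p was 0.0778 from limma. LRP6 passed in 1 of the alternatives, upper-quartile scaling (limma, adjusted p = 0.0468), which called 82 of the 11136 tested genes. Over the alternatives its adjusted p from limma ran from 0.0468 to 0.256. An exact two-sided permutation test gave p = 0.1, the smallest that 3 against 3 pigs allow. LRP5 was at 4.14, 3.19 and 7.16 FPKM in HF and 3.35, 3.05 and 2.71 in LF, with HF02 below LF01 (log2 fold change 0.58, 95% interval -0.092 to 1.25, and 0.26 without HF03). LRP5 was the more abundant of the pair in 5 of 6 pigs, HF02 being the exception.

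**Figure D2:**
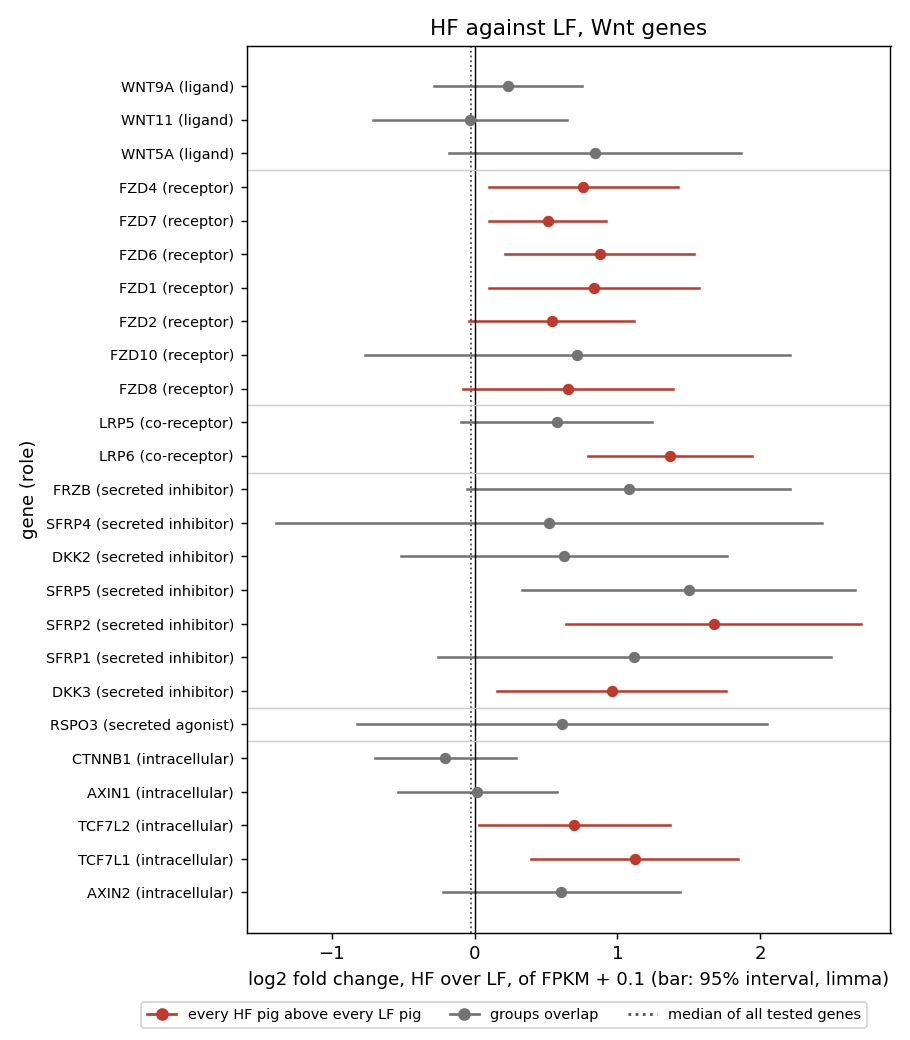
Log2 fold change, HF over LF, of FPKM + 0.1 for the 25 Wnt genes by role, with 95% intervals from limma; red marks genes with all HF pigs over all LF pigs and the dotted line the median of all tested genes. Points to the left of 0 are WNT11 and CTNNB1, and LRP6, SFRP2, SFRP5 and TCF7L1 reach furthest to the right of those whose interval leaves out 0.

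Secreted inhibitors were the most abundant group of extracellular Wnt genes. Their summed level was 58.1, 56.8 and 56.9 FPKM across HF01 to HF03 and 28.8, 44.1 and 20.9 across LF01 to LF03, with all HF pigs over all LF pigs. Without FRZB the sum was 9.31, 22.8 and 32.9 FPKM in HF and 19.95, 7.96 and 7.90 in LF, and the groups overlapped. The near-equal HF sums were made of different genes in each pig. FRZB (chr15:88332857-88377247), also named SFRP3 and known from cartilage and as a binder of Wnt ligands, supplied 84.0% of the sum in HF01, 59.9% in HF02 and 42.2% in HF03, and 30.8%, 82.0% and 62.2% in LF01, LF02 and LF03. Its level was 48.8, 34.0 and 24.0 FPKM among HF pigs and 8.86, 36.2 and 13.0 in the LF pigs. LF02 lay above HF02 and HF03, and the other LF pigs below all HF pigs. The log2 fold change was 1.08 (95% interval -0.051 to 2.21, adjusted p = 0.217 from limma), and ran from 0.65 without LF01 to 1.66 without LF02 (adjusted p = 0.0529).

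SFRP2 (chr8:75337106-75347522), which the study itself picked from these libraries as a pathway candidate, had the largest fold change of the tested Wnt genes. The study drew it from genes called by DESeq2 on read counts, and did not keep it among its final candidates. Here limma on FPKM did not call it. It was at 2.03, 1.49 and 4.16 FPKM in HF and 1.01, 0.787 and 0.351 in LF. All HF pigs exceeded all LF pigs, by at least 1.48 times, with a log2 fold change of 1.68 (standard error 0.45, 95% interval 0.64 to 2.71, adjusted p = 0.0975 from limma) and a range of the adjusted p of 0.0837 to 0.276 over the alternatives. SFRP5, an adipocyte-secreted inhibitor in mouse, was at 2.02, 4.85 and 6.23 FPKM in HF and 2.08, 1.77 and 0.623 in LF. HF01 fell just under LF01, and HF02 and HF03 were above all LF pigs (log2 fold change 1.5, 95% interval 0.33 to 2.67, adjusted p = 0.130 from limma). The SFRP5 model lies within the span of ZFYVE27, whose mean was 4.80 FPKM, and reads of the pair may not be told apart.

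SFRP1 was at 0.471, 2.41 and 2.18 FPKM in HF and 0.976, 0.591 and 0.328 in LF, with HF01 again among the LF pigs (log2 fold change 1.12, 95% interval -0.25 to 2.49, from 0.74 without HF02 to 1.81 without HF01). SFRP4 did not part the groups: it was at 1.73, 7.59 and 9.01 FPKM in HF and 12.3, 2.18 and 1.44 in LF, with its highest value in LF01. Its log2 fold change was 0.52 (95% interval -1.39 to 2.43) and turned to -0.077 without LF03 and to 1.43 without LF01. HF01, the pig with the lowest fibroblast and adipocyte marker sums of its group (283 and 105 FPKM), was also the lowest HF pig for SFRP1, SFRP4 and SFRP5, and the highest for FRZB. It also had the lowest HF sum of smooth muscle, endothelial, macrophage, lymphocyte and tendon markers. For muscle fibre, satellite cell and red blood cell markers it did not. HF01 was the lowest of the 6 pigs in 22.4% of all tested genes, the largest share of any pig. Whether the markers and these inhibitors are linked was not tested.

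Of the DKK family, DKK2 and DKK3 passed the minimum. DKK2, which binds LRP5 and LRP6 and can inhibit or activate, was at 2.31, 4.30 and 9.81 FPKM in HF and 2.71, 2.04 and 4.65 in LF. The groups overlapped, and the log2 fold change of 0.63 was 0.092 without HF03. DKK3, a divergent member that is not known to block LRP5 and LRP6 as DKK1 does, was at 0.723, 1.59 and 1.34 FPKM in HF and 0.656, 0.546 and 0.456 in LF. All HF pigs exceeded all LF pigs, by at least 1.10 times (log2 fold change 0.96, 95% interval 0.16 to 1.76, adjusted p = 0.146 from limma). RSPO3, the only R-spondin above 0.5 FPKM on average and an amplifier of Wnt signals through LGR receptors, was at 1.08, 0.483 and 1.97 FPKM in HF and 0.515, 0.285 and 1.598 in LF. Pig 03 was highest in both groups, and the log2 fold change of 0.61 had a wide interval (-0.82 to 2.05) and ran from 0.14 without LF02 to 1.21 without LF03.

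**Figure D3:**
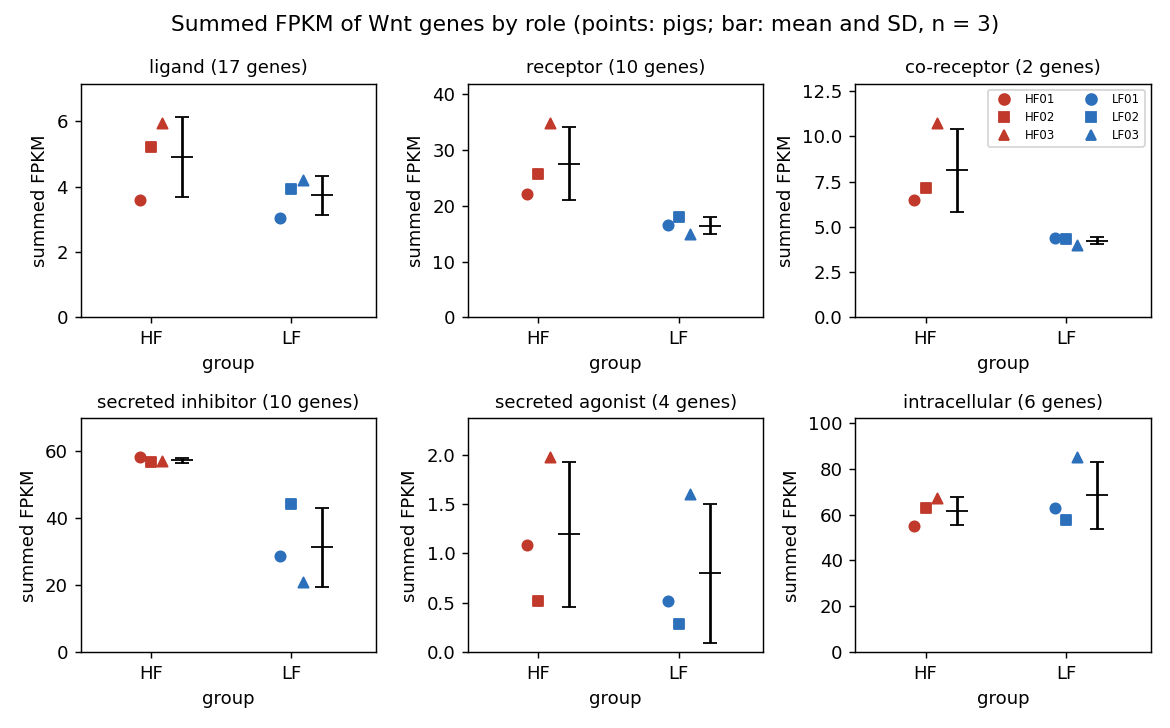
Summed FPKM of the Wnt genes of each role, by pig, with the mean and SD of each group (n = 3); each axis starts at 0. Receptors, co-receptors and secreted inhibitors show all HF pigs over all LF pigs, and ligands, agonists and intracellular genes overlap.

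Inside the cell, CTNNB1 was on average the most abundant Wnt gene, measuring 48.4, 55.3 and 56.5 FPKM across HF01 to HF03 and 57.0, 52.3 and 77.6 across LF01 to LF03. It encodes beta-catenin, which also serves in cell junctions. LF03 was highest, the groups overlapped, and the log2 fold change was -0.20 (95% interval -0.70 to 0.29), with 0.053 under quantile normalization. AXIN1, the scaffold of the destruction complex, was at 3.24, 3.12 and 4.13 FPKM in HF and 3.33, 2.63 and 4.54 in LF. Its log2 fold change of 0.020 (95% interval -0.54 to 0.58) changed sign between alternatives. AXIN2, the scaffold that is itself a target of beta-catenin, was at 1.03, 1.01 and 2.08 FPKM in HF and 0.691, 0.653 and 1.19 in LF. Pig 03 was highest in each group, and LF03 exceeded HF01 and HF02 (log2 fold change 0.61, 95% interval -0.22 to 1.44, and 0.29 without HF03).

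The TCF and LEF factors carry beta-catenin to DNA, and 2 of those taken by the rule could be tested. TCF7L1 (chr3:59439132-59460590), mostly a repressor, was at 1.22, 1.82 and 2.18 FPKM in HF and 0.830, 0.893 and 0.508 in LF, each HF pig being at least 1.36 times each LF pig. Its log2 fold change was 1.12 (standard error 0.32, 95% interval 0.40 to 1.85, adjusted p = 0.102 from limma). TCF7L2, the factor best known from metabolic tissues, was at 1.10, 1.65 and 2.06 FPKM in HF and 0.759, 0.939 and 1.08 in LF. HF01 was 1.01 times LF03, and the log2 fold change was 0.70 (95% interval 0.029 to 1.37, adjusted p = 0.187 from limma). With quantile normalization TCF7L1 kept all HF pigs on top and TCF7L2 did not. LEF1 was at 0.0155 to 0.158 FPKM in HF and 0.0468 to 0.158 in LF. TCF7, the related factor outside the rule, also overlapped, at 0.0502 to 0.132 and 0.0432 to 0.0889.

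**Figure D4:**
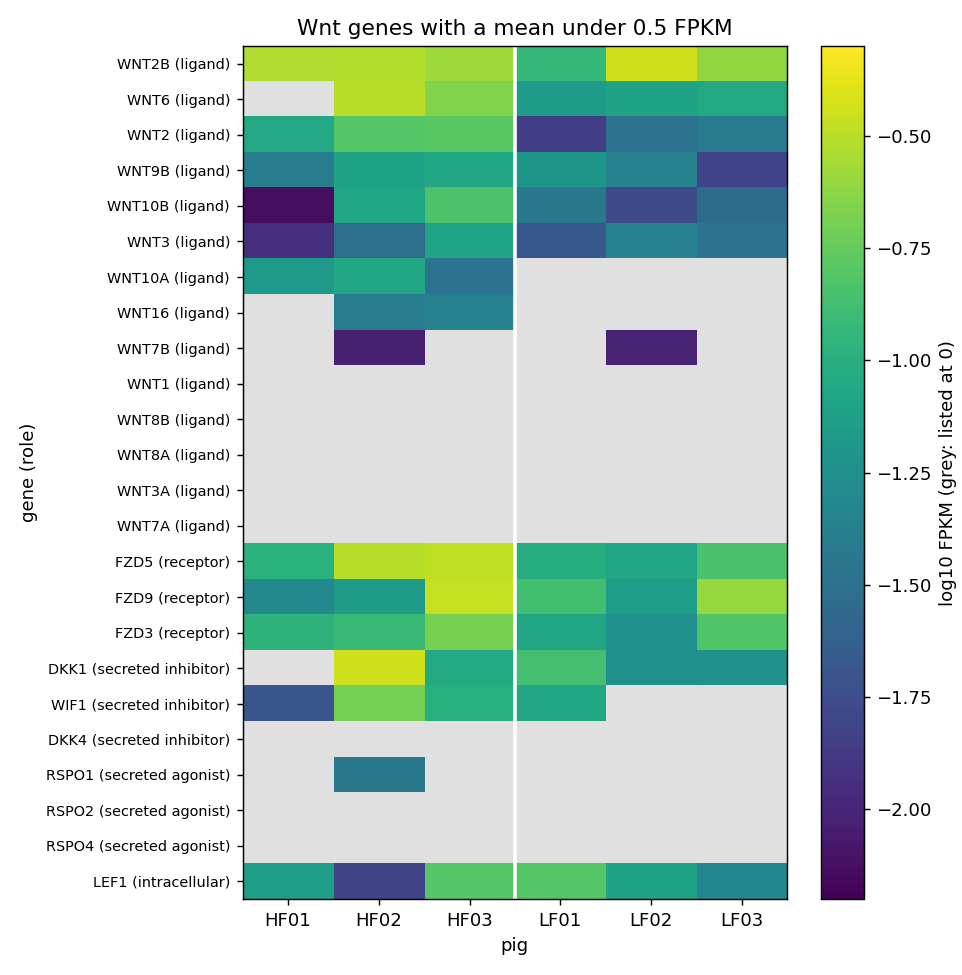
Level of the 24 Wnt genes with a mean under 0.5 FPKM in each pig, as log10 FPKM in colour, with grey for values listed at 0. WNT2 is brighter in the 3 HF pigs than in any LF pig, and WNT10A has a value in each HF pig and in no LF pig.

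Of the 24 genes under 0.5 FPKM, 8 are listed at 0 in all pigs: WNT1, WNT3A, WNT7A, WNT8A, WNT8B, DKK4, RSPO2 and RSPO4. Another 9 were above 0 in every pig and 7 in some, with 0.366 FPKM for DKK1 in HF02 the highest single value. WNT3A and WNT7A are ligands widely used to stimulate muscle cells in culture, and WNT1 is a classical activator of beta-catenin. WNT2B, the highest of the low ligands, was at 0.298, 0.304 and 0.263 FPKM in HF and 0.117, 0.365 and 0.248 in LF. WNT2 was at 0.0892, 0.159 and 0.163 FPKM in HF and 0.0143, 0.0325 and 0.0389 in LF, with all HF pigs over all LF pigs. Without a filter on low values its log2 fold change was 0.87 and its adjusted p 0.118 from limma. The WNT2 model shares its end with ST7 and the WNT2B model lies within ST7L, both expressed in this muscle. WNT10A was at 0.0673, 0.0871 and 0.0331 FPKM among HF pigs, whereas each LF pig has it listed at 0. Over all 41 Wnt genes with a value above 0 in any pig, 13 had all HF pigs over all LF pigs (13.4% of the 16596 such genes) and 0 had every HF pig below (12.1%). WNT6, a ligand of skin and kidney development, was at 0.316 and 0.219 FPKM in HF02 and HF03, is listed at 0 in HF01, and was at 0.0713 to 0.0907 in the LF pigs. The gene models of WNT1 and WNT10B overlap, as do those of WNT3 and NSF.

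FZD5, which was at 0.103, 0.314 and 0.330 FPKM in HF and 0.0965, 0.0838 and 0.142 in LF, was the highest of the frizzleds under the minimum, with HF02 and HF03 above all LF pigs. FZD9 was at 0.0498, 0.0698 and 0.340 FPKM in HF and 0.133, 0.0734 and 0.249 in LF, and FZD3 at 0.107, 0.1201 and 0.205 and 0.0843, 0.0564 and 0.153. In both, pig 03 was the highest of its group. WIF1, an inhibitor that binds the ligands directly, was at 0.0205, 0.201 and 0.0991 FPKM in HF, at 0.0863 in LF01, and is listed at 0 in LF02 and LF03.

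Single pigs weighed on these patterns. HF03 was the highest of the 6 pigs in 15 of the 25 tested genes (60%), against 27.4% of all tested genes and 38.5% of those under 5 FPKM. LF03 was the lowest in 10 of 25 (40%), against 16.7% and 21.7%. HF01 was the highest only for FRZB, 1 of 25 (4%), close to its 4.68% of all tested genes and 5.05% of those under 5 FPKM. The median residual SD of the 25 genes was 0.42 on the log2 scale, against 0.31 for all tested genes. SFRP4, RSPO3, FZD10 and SFRP1 varied most within the groups (residual SD 1.45, 1.01, 0.997 and 0.97), and FZD7 and FZD8 least (0.13 and 0.20).

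Other genes of the pathway, outside the rule, were also counted. Of 58 such genes 55 are in the table and 38 were tested. By limma 0 passed an adjusted p under 0.05, 12 were higher and 0 lower in HF at an unadjusted p under 0.05 (11% and 13.8% of all tested genes), and the median log2 fold change was 0.27. All HF pigs exceeded all LF pigs in 13 (12.8% of all tested genes) and lay below them in 1 (17.1%). Of the 36 that averaged 0.5 FPKM in each group, these counts were 10 higher, 11 above and 1 below. Of all genes that did so, the shares were 9.79%, 11.4% and 17.8%. Of the planar polarity genes, 4 of 6 tested were higher at an unadjusted p under 0.05: DAAM2, VANGL1, CELSR2 and PRICKLE2, with log2 fold changes of 1.01, 0.98, 0.91 and 0.81, where 11% of all tested genes and 15.6% of low ones were. VANGL1 and PRICKLE2 reached 0.5 FPKM only through their HF mean, and without them the count was 2 of 4 (9.79% of all genes with that mean in each group). In the nucleus, BCL9L and BCL9, which hold beta-catenin to its co-activators, were at 7.31 ± 0.945 and 2.68 ± 0.183 FPKM in HF and 4.36 ± 0.570 and 1.51 ± 0.418 in LF (SD, n = 3 each; adjusted p = 0.0969 and 0.104 from limma). KREMEN1, the DKK receptor, was at 2.24, 1.59 and 5.14 FPKM in HF and 0.645, 1.33 and 1.47 in LF, and LGR4, an R-spondin receptor, at 3.12, 5.31 and 5.42 and 2.64, 2.98 and 3.26. WLS, which carries ligands to the cell surface, and PORCN, which adds their lipid, had log2 fold changes of -0.012 and 0.28. The cytoplasm list was split, with 7 positive and 7 negative and a median of 0.064. AMER1 and APC of the destruction complex had every HF pig on top (log2 fold changes 0.87 and 0.47), its kinases GSK3A, GSK3B and CSNK1A1 had log2 fold changes of -0.21, -0.11 and -0.44, and CSNK1E had every HF pig below. Without HF03, the number at an unadjusted p under 0.05 was 4, without LF01 it was 5, and with quantile normalization it was 7. Of all tested genes, 6.38%, 7.82% and 10.8% were then higher in HF at that level, and 10.3%, 8.99% and 11.9% lower.

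Of 15 genes known as targets of beta-catenin, 7 were tested, where 11136 of all 25878 genes were. By limma 0 of them passed an adjusted p under 0.05. The log2 fold change was positive in 6 (median 0.60), against 48.1% of all tested genes and 62.7% of low ones. At an unadjusted p under 0.05, 2 were higher (11% of all tested genes and 15.6% of low ones). TNFRSF19 reached 0.5 FPKM only through its HF mean, and without it 5 of 6 were positive (median 0.53). PPARD was the negative one (-0.36). CCND1, the cell cycle regulator cyclin D1, was at 1.16, 1.41 and 1.75 FPKM in HF and 0.831, 0.888 and 0.479 in LF. NKD2, a feedback inhibitor that binds DVL proteins, was at 0.817, 1.002 and 1.48 FPKM in HF and 0.593, 0.782 and 0.266 in LF. In these 2 genes no LF pig reached an HF pig (12.8% of all tested genes and 18.5% of low ones). In AXIN2, MYC, TNFRSF19, ZNRF3 and PPARD the groups overlapped. AXIN2 is also a gene of the rule, and NKD2 and ZNRF3 are also among the other pathway genes. The counts of these lists are therefore not independent. Target levels are those of whole muscle and were not resolved by cell type.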

How the data were processed

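RNA from the longissimus dorsi of 6 pigs (3 HF, 3 LF) was sequenced as paired ends. As stated in the methods, the authors filtered reads with fastp (0.12.3), aligned them with HISAT2 (2.0.5) to Sscrofa 11.1 (Ensembl release 92) and computed the deposited FPKM per gene and pig with cufflinks (2.2.1). The deposited table also holds the authors' DESeq2 comparison, which was not used, and a second sheet that repeats the FPKM of genes above 0 in at least 1 pig. Columns were matched to pigs by name, and 0 were left unmapped. Whether counting used strand is not given in the sources used here. Gene starts in the table count from 0, so gene overlaps were computed from starts increased by 1.

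log2(FPKM + 0.1) was compared by limma (3.58.1 in R 4.3.3; eBayes with a mean trend, no covariate) over the 11136 genes averaging 0.5 FPKM or more, with Benjamini-Hochberg adjustment over all of them. The fit was tested on simulated data. Symbols are those of the table. For other lists, blanks were filled by gene ID, which left 7190 of 25878 genes without one. Members and lists were chosen with earlier results of these data known. Every member with a mean of at least 0.5 FPKM is named. Of each other list up to 4 genes with the smallest p were planned, but others were named as well and some of these left out. Markers of tendon, lymphocytes, macrophages and red blood cells were also measured. A further marker list is not reported here. The number of reads per gene was not used. In rows with a mean under 0.05 FPKM the values fall in steps, from which the relative depth of the libraries was estimated at 1.02 to 1.30 times that of HF01. The clean reads per library that the paper lists differ less than this estimate. No sequences are printed. Alternatives were pseudocounts of 1 and 0.01, no filter, a mean of at least 5 FPKM, 3 scalings, no trend, a robust fit, a block on the replicate number, each pig removed in turn, and an adjusted p under 0.10. A minimum of 0.5 FPKM in each group was added after the data were seen.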

Additional observations from a re-analysis of the deposited data

How the results depend on the processing

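Of 401 refitted log2 fold changes of the 25 genes, 8 changed sign and 1 crossed the threshold, and 21 genes kept their direction throughout. WNT11 turned to 0.12 with upper-quartile scaling, 0.21 without HF01 and 0.052 without LF03. AXIN1 turned to -0.020 with quantile normalization, -0.10 without HF03 and -0.16 without LF02. CTNNB1 turned to 0.053 with quantile normalization, and SFRP4 to -0.077 without LF03. With each pig left out, WNT11 ran from -0.21 to 0.21, AXIN1 from -0.16 to 0.22 and SFRP4 from -0.077 to 1.43. These genes were not called in any setting, and the cause was not tested. Upper-quartile scaling moved the median of all genes from -0.026 to 0.13 and called 1 of the 25 Wnt genes (LRP6), and 82 of the 11136 tested genes. A threshold of 0.10 called 2 of the 25 (LRP6 and SFRP2), and 704 of the 11136. A mean of at least 5 FPKM left 5 of the genes, of which 2 were at an unadjusted p under 0.05 and 2 had every HF pig on top. Of the 5299 genes that passed it, 5.72% were higher in HF at that level and 6.57% had every HF pig on top. Of the other pathway genes 1 was then at an unadjusted p under 0.05. Quantile normalization gave 6 genes with every HF pig on top, 1 (WNT11) with every HF pig below, and 7 other pathway genes at an unadjusted p under 0.05. Of all tested genes 12.9% had every HF pig on top and 15.8% every HF pig below.

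With each pig left out in turn, the number of genes at an unadjusted p under 0.05 and higher in HF ran from 4 to 12. The share of all tested genes ran from 6.38% to 13.6%. The median log2 fold change ran from 0.48 to 0.84, and the other pathway genes at an unadjusted p under 0.05 from 4 to 14. Genes with every HF pig on top ran from 11 to 14 (13.6% to 24.0% of all tested genes). Those with every HF pig below ran from 0 to 1, CTNNB1 without LF02 (19.4% to 27.7% of all tested genes). A gene without overlap stays so when a pig is removed, so these last counts do not check it. The number called was 0 in each.

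What the replicate numbers of HF and LF pigs stand for is not given in the sources used here. Deviations of same-numbered pigs correlated at -0.043, 0.088 and 0.016. With the replicate block, 11 Wnt genes were at an unadjusted p under 0.05, 0 were called and 10 other pathway genes were at an unadjusted p under 0.05. Of all tested genes, 10.5% were then higher in HF at that level and 12.4% lower. The fragments behind each value are not known, so the precision of values under 0.5 FPKM could not be given.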

Other observations

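WNT5B has no symbol in the table and was found by its gene ID in the gene name table, so it lay outside the rule. This ligand, close in sequence to WNT5A and known in cell culture to favour fat cell formation, measured 1.75, 2.30 and 2.85 FPKM across HF01 to HF03 and 2.36, 3.28 and 6.25 across LF01 to LF03, higher on average than any ligand the rule took. The groups overlapped, with LF03 the highest, and the log2 fold change was -0.67 (limma, adjusted p = 0.275), opposite in sign to that of WNT5A (0.84). Neither passed the test, and the difference between them was not tested.

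Of other cell types, macrophage markers were at 4.36 to 10.8 FPKM in HF and 5.09 to 6.55 in LF as a sum, lymphocyte markers at 0.607 to 1.03 and 0.895 to 1.04, tendon markers at 11.2 to 27.2 and 10.4 to 24.1, and red blood cell markers at 65.4 to 116 and 26.1 to 92.7. TNMD, a tendon gene, was at 1.46 FPKM in HF02 and 1.92 in LF01 and at 0.110 or less in the other pigs. VCAM1 was the 1 of 5 satellite cell markers for which no HF pig reached an LF pig (17.1% of all tested genes). It was at 6.18, 10.7 and 7.80 FPKM in HF against 12.2, 12.9 and 13.8 in LF. PAX7 was the 1 of 5 for which no LF pig reached an HF pig (12.8% of all tested genes), at 1.55, 1.03 and 1.43 FPKM in HF against 0.718, 0.587 and 0.570 in LF.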
